A study of Mus musculus with 6 samples.

Results

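The 10 genes described here encode enzymes that make, modify or break down ceramide and other sphingolipids, and were taken by their symbols: Sptlc1, Sptlc2, Cers2, Cers4, Cers5, Cers6, Degs1, Ugcg, Sgms1 and Smpd1. They were 10 of 48967 genes listed in the files, of which 30967 had a count in any library, and 10 of 16020 genes that passed the filter on low counts, which all of them passed. The data were 6 RNA-seq libraries of mouse 2-cell embryos, 3 of control and 3 of delipidated embryos, with 3 embryos pooled in each. All embryos were wt and came from F1 (C57Bl/10 × CBA/H) females mated with F1 males. They were cultured in KSOM without fatty acids from 0.5 to 2.0 dpc and labelled day 2. In the delipidated group, zygotes had been centrifuged in medium with cytochalasin B, later with sucrose added, and the lipid droplets had then been aspirated through an opening made in the zona by laser. The paper labels these controls IVC, and in a separate inhibitor experiment it sets delipidated beside non-manipulated zygotes. For the controls of these libraries, the sources used here do not state whether zygotes were centrifuged or met cytochalasin B. Removal of lipid and handling therefore cannot be told apart. The embryos of all libraries came from 1 pool collected from 6 females, so p-values measure the spread between small pools of embryos and not between litters.

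Sphingolipids are membrane lipids built on a long-chain base. Their synthesis starts in the endoplasmic reticulum, where serine palmitoyltransferase joins serine to a fatty acyl-CoA, ceramide synthases then attach a further fatty acid, and a desaturase turns dihydroceramide into ceramide. Ceramide is passed on to glucosylceramide or to sphingomyelin, and sphingomyelinases release it again, so the pathway draws on the same acyl-CoA that is stored as triglyceride in lipid droplets. The comparison of delipidated with control embryos asked whether transcripts of these enzymes differed after the droplets had been taken away.

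The summed gene counts ranged from 12164963 in control replicate 1 to 20059460 in delipidated replicate 1. The number of genes with a count was 22855, 22437 and 20582 in control and 17091, 19408 and 20158 in delipidated embryos, so that each delipidated library had fewer than each control library. The deepest library, delipidated replicate 1, had the fewest. The part of this in the levels given here was not tested. The files list counts for exonic parts, the pieces into which a gene's exons are divided, and 1 read may enter the count of more than 1 part, so the sums exceed the number of reads. Levels are given as CPM, counts divided by a library size that TMM factors had scaled. Levels of different genes are compared only per kilobase of summed exonic parts. This length does not correct for repeated counting, which can raise the level of genes cut into many short parts. In Cers2, for example, a part of 2 bases held 44 counts in delipidated replicate 1, as did the 75 bases before it.

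Of the 10 enzyme genes, none was called higher or lower in delipidated embryos by the edgeR quasi-likelihood test, with an adjusted p under 0.05 and a log2 fold change beyond 1. Over all 16020 genes the same rule called 0.0%, and an unadjusted p under 0.05 was reached by 463 genes (2.89%) but by none of the 10. Without any filter, DESeq2's Wald test called 9 genes higher and 40 lower (0.158% of 30967) and edgeR called 5 higher and 25 lower (0.0969%), and no enzyme gene was among them. The adjusted p was 1.00 for each of the 10 genes in the edgeR test. In 5 genes the fitted log2 fold change was above 0 and in 5 it was below, with a median of −0.022, beside a median of −0.0007 over all genes tested. The 95% interval of the difference included 0 for all 10 genes. It lay within 1 log2 unit on either side for 4 of them, Sptlc1, Sptlc2, Degs1 and Ugcg, and was wider for the other 6. For comparison, Mlxipl, which encodes the transcription factor ChREBP that the study is about, had 64.3, 45.5 and 50.8 CPM in control and 122, 196 and 89.4 CPM in delipidated embryos. Its log2 fold change was 1.34 ± 0.31 (SE), its unadjusted p was 0.00114 and its adjusted p was 1.00 in edgeR's test. The paper, which used DESeq2, reports Mlxipl as the only mRNA significantly raised in delipidated embryos. It also reports a higher ChREBP protein signal by immunofluorescence.

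**Figure D1:**
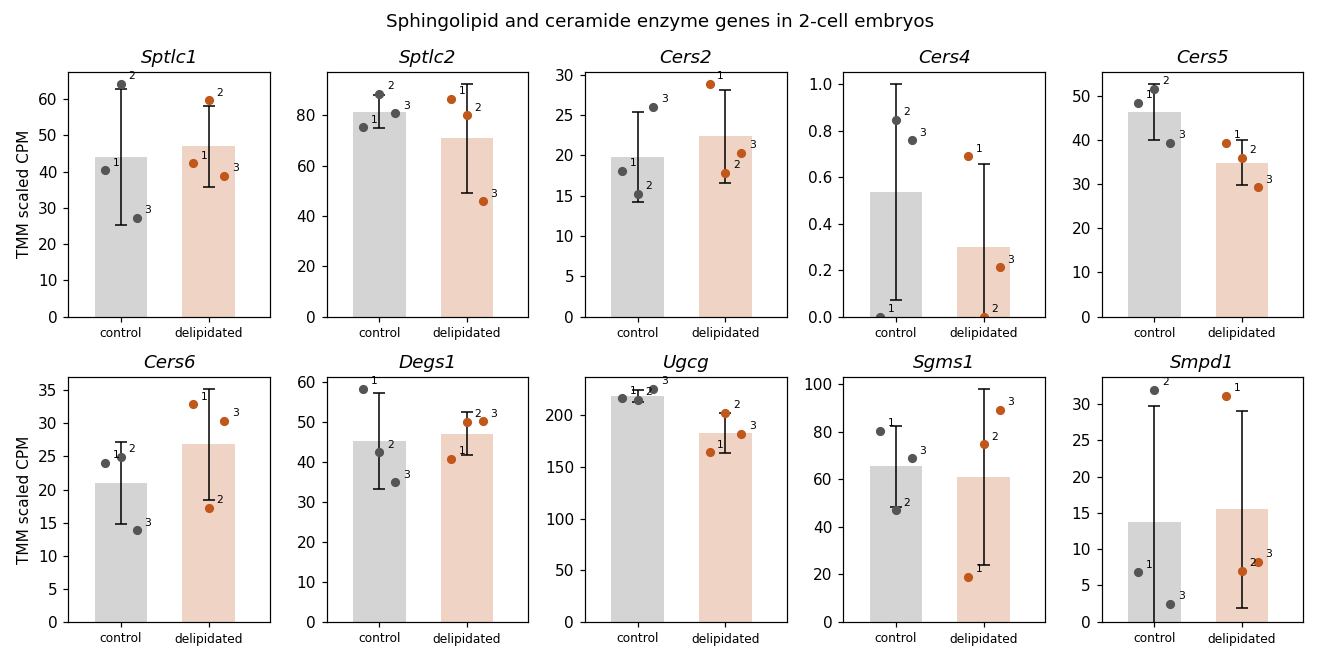
TMM scaled CPM of each of the 10 enzyme genes (vertical axes, linear from 0, a scale for each gene) in control and delipidated 2-cell embryos. Points are single libraries marked with their replicate number, bars are means and error bars are the SD over 3 libraries, with the lower ends for control Smpd1 and delipidated Cers4 running past the axis. The 3 Ugcg points of delipidated embryos lie below the 3 of control embryos, and in the other 9 genes the groups overlap.

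The levels of the 10 genes differed far more from one another than between the groups. In control embryos Ugcg stood first with 42.1 ± 1.10 CPM per kb (SD, n = 3), and it was above every other member in all 6 libraries. Degs1 followed with 17.4 ± 4.61 and Sptlc1 with 16.9 ± 7.21 CPM per kb, and this pair could not be ordered, since Degs1 was the higher in 3 of 6 libraries. Cers5 with 13.1 ± 1.79 CPM per kb was below Sptlc1 in 5 of 6 libraries but within its control range. Sptlc2 with 10.1 ± 0.81 CPM per kb lay below Cers5 in all 6. The ranges of Sgms1 (6.35 ± 1.65), Cers2 (5.38 ± 1.53), Smpd1 (4.13 ± 4.77) and Cers6 (2.36 ± 0.70 CPM per kb) overlapped from each gene to the next. Cers4 was last with 0.044 ± 0.038 CPM per kb. In delipidated embryos the order of the mean levels was the same but for Sgms1 and Cers2, which changed places.

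Part of this order rests on which exonic parts are counted in the length of a gene. A part was classed as coding if it held any coding base, so a coding part may also hold untranslated sequence. In Sptlc2, the 3 parts that lie in untranslated regions alone make up 4695 bases and held 3.83% of its counts, while its 14 coding parts held 94.0%. On coding parts alone, an alternative chosen after the data had been seen, Sptlc2 moved from the fifth place to the second in control embryos, with 37.7 ± 1.80 CPM per kb. Sgms1, in which 14 parts of other transcripts than the coding ones make up 5601 bases and held 1.93% of the counts, moved from the sixth to the third with 26.0 ± 8.48 CPM per kb. Ugcg stayed first with 58.5 ± 1.78 CPM per kb, and Cers4 stayed last. With the median over parts of at least 100 bases, 4 of the 10 genes kept their place, Ugcg and Cers4 among them, while Sptlc2 again came second and Sgms1 moved the other way, to the ninth place with 0.715 CPM per kb.

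Sptlc1 and Sptlc2 encode the core subunits of serine palmitoyltransferase, which makes the first step of the pathway. Sptlc1 lies on chromosome 13 (mm10, chr13:53332716-53377365 for its listed parts, minus strand), and each of its 15 exonic parts held counts. It had 40.3, 64.3 and 27.2 CPM in control replicates 1, 2 and 3 and 42.3, 59.7 and 38.8 CPM in the delipidated replicates. The delipidated values lay inside the control range, and the log2 fold change was 0.094 ± 0.37 (SE, 95% interval −0.71 to 0.90). It was below 0 without control replicate 3 (−0.16), without delipidated replicate 2 (−0.12) and on the longest exonic part alone (−0.54). Sptlc2, on chromosome 12 (chr12:87305058-87388355, minus strand), had 75.3, 88.5 and 80.8 CPM in control and 86.6, 80.0 and 45.9 CPM in delipidated embryos. The first 2 delipidated libraries fell within the control range and the third stood at the lowest value of the 6. The log2 fold change of Sptlc2 was −0.20 ± 0.29 (95% interval −0.84 to 0.43), and without delipidated replicate 3 it was 0.028. On the longest exonic part of Sptlc2 alone it was −0.83 ± 1.57. That part, 3012 bases of untranslated sequence, held few counts: 7, 11 and 17 in control and 1, 8 and 13 in delipidated embryos. Which subunit had the higher level depended on the length used. Per kilobase of all exonic parts, the ratio of Sptlc1 to Sptlc2 was 1.05 to 2.63 over the 6 libraries. On coding parts, as classed here, it was 0.279 to 0.718. This classing kept all 15 parts of Sptlc1, the last with 1262 bases, but left out 4695 bases of untranslated parts of Sptlc2. The 2 genes were thus not measured alike, and the ratio on coding parts does not order them.

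The ceramide synthases differ in the length of the fatty acid they attach: Cers5 and Cers6 prefer palmitoyl-CoA, Cers2 very long chains and Cers4 chains of intermediate length. Per kilobase of all exonic parts, Cers5 had the highest level of the 4 in each library, with 62.5% ± 5.89 (SD, n = 3) of their summed level in control and 52.2% ± 6.65 in delipidated embryos. Cers2 followed with 26.0% ± 8.69 and 31.8% ± 2.97, and Cers6 with 11.2% ± 2.90 and 15.9% ± 4.23. These shares were taken up after the values had been seen and were not tested between the groups. The order depended on the length used. On coding parts alone, the share of Cers5 was 56.1% ± 2.55 in control and 38.6% ± 8.77 in delipidated embryos, and that of Cers6 was 20.6% ± 11.9 and 36.1% ± 7.35. Cers6 then stood above Cers5 in delipidated replicates 1 and 3, and next to Cers2 in control embryos, with 7.44 ± 4.80 against 7.48 ± 1.84 CPM per kb. The coding length of Cers5 includes nearly empty parts, which lower its level. A part of 212 bases, for example, held counts of 0 and 7 in delipidated replicates 1 and 3. Whether Cers6 lay above Cers5 in these libraries therefore depends on such parts.

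Cers5, on chromosome 15 (chr15:99734881-99772885, minus strand), had 48.3, 51.5 and 39.3 CPM in control and 39.4, 35.9 and 29.2 CPM in delipidated embryos. The groups met at control replicate 3 and delipidated replicate 1, and the other delipidated libraries were below all control libraries. The log2 fold change was −0.41 ± 0.31 (95% interval −1.08 to 0.26), and the exact two-sided permutation test gave p = 0.2. Its sign was the same in all 13 alternatives that gave a value, with values from −0.52 to −0.30. Cers6, on chromosome 2 (chr2:68861441-69114282, plus strand), had 24.1, 25.0 and 13.8 CPM in control and 32.9, 17.2 and 30.4 CPM in delipidated embryos. Delipidated replicates 1 and 3 were above the control libraries and replicate 2 was not, and the log2 fold change was 0.36 ± 0.41 (95% interval −0.54 to 1.26). Its longest part, 5638 bases of untranslated sequence, gave −0.25.

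Cers2, on chromosome 3 (chr3:95314791-95323599, plus strand), had 18.1, 15.2 and 26.1 CPM in control and 28.9, 17.9 and 20.3 CPM in delipidated embryos. The groups overlapped, with a log2 fold change of 0.18 ± 0.40 (95% interval −0.70 to 1.06) and of −0.050 without delipidated replicate 1. On the longest exonic part of Cers2 alone it was 1.20 ± 1.17. A share of 15.4% of the Cers2 counts fell on parts that overlap genes of the opposite strand, among them Anxa9 and Setdb1, whose reads cannot be told apart from its own. Cers4, on chromosome 8 (chr8:4493026-4531680, plus strand), was barely detected, with counts of 0, 14 and 10 in control and 14, 0 and 3 in delipidated embryos. A count of 0 allows up to 0.253 CPM in control replicate 1 and 0.184 CPM in delipidated replicate 2, if 3 counts are taken as its upper limit, and this covers counting error only. Of its 41 counts, 5 fell on coding parts, all of them in control replicate 2, and 34.1% on parts that overlap genes of the opposite strand. The fitted log2 fold change of Cers4, −0.81 with a 95% interval from −5.14 to 3.52, leaves a difference in either direction undecided.

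Degs1 encodes the desaturase that introduces the double bond of ceramide. The gene lies on chromosome 1 (chr1:182275772-182282804, minus strand), and its 4 coding parts held 99.9% of its counts. Degs1 had 58.3, 42.4 and 34.9 CPM in control and 40.8, 50.1 and 50.2 CPM in delipidated embryos. The delipidated libraries lay within the control range, and the log2 fold change of 0.057 ± 0.31 had a 95% interval from −0.62 to 0.73, or 0.652-fold to 1.66-fold. Degs1 was at −0.10 without control replicate 3 and at −0.18 on its longest part alone.

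Ugcg encodes glucosylceramide synthase, which adds glucose to ceramide and opens the way to the glycosphingolipids. The gene lies on chromosome 4 (chr4:59189257-59222833, plus strand), and 98.6% of its counts fell on its 10 coding parts, the last of which also holds the end of the transcript. Ugcg had 217, 215 and 226 CPM in control and 164, 202 and 182 CPM in delipidated embryos. Each delipidated library was below each control library, and the control libraries were close together, with an SD of 5.75 CPM against 19.0 CPM in delipidated embryos. Ugcg was the 1 gene of 10 whose groups did not overlap in this direction, beside 5.05% of all genes tested; in the other direction it was 0 of 10, beside 3.81%. Its log2 fold change was −0.26 ± 0.19 (95% interval −0.68 to 0.16, or 0.623-fold to 1.12-fold), with an unadjusted p of 0.201 in edgeR's test. The exact two-sided permutation test gave p = 0.1, the smallest that 3 against 3 libraries allow. The value was below 0 in all 14 alternatives, from −0.34 to −0.17, and was called in none.

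Over the 6 libraries, the genes with the pattern most like that of Ugcg, among 8126 other genes tested with a mean of at least 10 CPM, were Glcci1 (Pearson r = 0.99 on log2(CPM + 1)), Gk (r = 0.99) and Tmem181a (r = 0.98). Glcci1 had 24.5, 26.8 and 30.5 CPM in control and 13.4, 22.4 and 16.4 CPM in delipidated embryos. Like Ugcg, it was lowest in delipidated replicate 1 and highest in control replicate 3. With 6 libraries, 61 genes had an r above 0.9 with Ugcg, and the likeness is given as a description.

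Sgms1 encodes a sphingomyelin synthase of the Golgi, which moves phosphocholine from phosphatidylcholine to ceramide. The gene lies on chromosome 19 (chr19:32122727-32389714, minus strand). Sgms1 had 80.3, 46.9 and 68.9 CPM in control and 19.0, 74.8 and 89.2 CPM in delipidated embryos. Delipidated replicate 1 stood far below the other 5 libraries, while delipidated replicates 2 and 3 lay within or above the control range. The log2 fold change was −0.10 ± 0.47 (95% interval −1.13 to 0.93). Without delipidated replicate 1 it was 0.33, without delipidated replicate 3 it was −0.48 and without control replicate 1 it was 0.087.

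The low value of Sgms1 in delipidated replicate 1 was compared between 2 stretches of its coding parts, chosen after the values had been seen. Over the 3 parts of the first coding exon (chr19:32159524-32160169) this library had 1.73 CPM, against 16.3 to 35.4 CPM in the other 5. Over the 4 later coding parts it had 5.38 CPM, against 8.17 to 21.4 CPM. Delipidated replicate 1 was thus lowest over both stretches. The same library had the fewest genes with a count, and the part of this in the value of Sgms1 was not tested. Ugcg had a higher level than Sgms1 in each library, but the ratio depended on the length used. It ran from 4.03 in delipidated replicate 3 to 17.1 in delipidated replicate 1 per kilobase of all exonic parts, and from 1.42 to 9.02 in the same libraries on coding parts alone.

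Smpd1 encodes acid sphingomyelinase, the lysosomal enzyme that cleaves sphingomyelin to ceramide. The gene lies on chromosome 7 (chr7:105554360-105558389, plus strand). It varied more between libraries than any other member with counts in all 6, with 6.83, 32.0 and 2.51 CPM in control and 31.2, 7.07 and 8.26 CPM in delipidated embryos. Control replicate 2 and delipidated replicate 1 were high and the other 4 libraries low, a 12.8-fold range that ran through both groups. A part of 512 bases that lies only in other transcripts than the coding ones had a count of 0 in all libraries. The log2 fold change was 0.17 ± 0.84 (95% interval −1.68 to 2.01), and 1 library decided its sign. It was 1.73 without control replicate 2, and −0.85, −0.33 and −0.15 without delipidated replicate 1, control replicate 3 or control replicate 1.

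**Figure D2:**
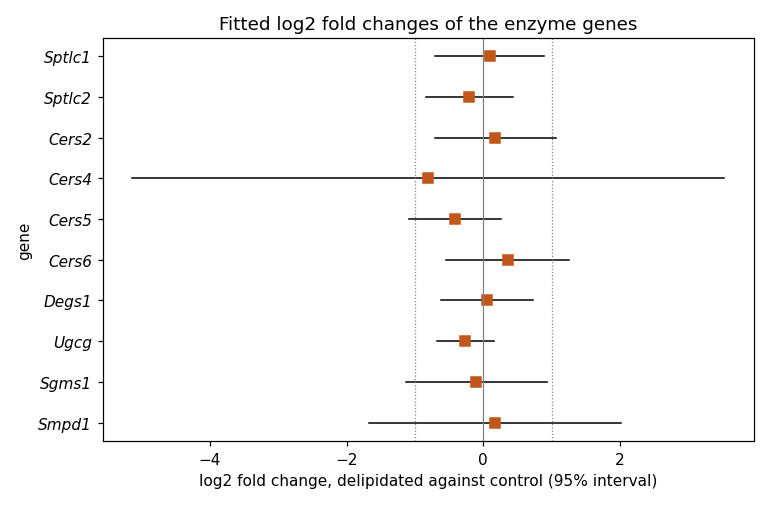
Fitted log2 fold changes of the 10 enzyme genes in delipidated against control embryos (horizontal axis), with edgeR's estimate as a square and its 95% interval as a line. The solid vertical line marks 0 and the dotted lines mark 1 and −1. All 10 intervals include 0, from the narrow one of Ugcg (−0.68 to 0.16) to that of Cers4 (−5.14 to 3.52).

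A wider list of 62 other genes of sphingolipid metabolism showed no called gene either. Of these, 52 passed the filter. A log2 fold change above 0 was seen in 18 and below 0 in 34, beside 8004 and 8016 of all genes tested. None of the 52 reached an unadjusted p under 0.05 in edgeR's test. In this edgeR fit the list had a median log2 fold change of −0.15, beside −0.0007 for all genes tested. Without a filter the list did not lie below all genes. Its median was then −0.153 beside −0.175 in edgeR, and −0.147 beside −0.171 in DESeq2. The list's median stayed below 0 but was −0.046 without control replicate 2, −0.22 without control replicate 1 and −0.035 on the longest part of each gene. Without a filter, 2 genes of the list had such a p in DESeq2's test, Sphk1 and the sialidase gene Neu1, beside 4.33% of all genes. In edgeR's test without a filter it was also 2, beside 3.92% of all genes, namely Sphk1 and Smpdl3a, which had counts only in delipidated replicate 2. In the filtered edgeR fit the smallest p of the list was that of Sphk1, a sphingosine kinase named here after its value had been seen. It had 4.39, 22.6 and 6.99 CPM in control and 4.49, 4.12 and 3.74 CPM in delipidated embryos, with a log2 fold change of −1.46 ± 0.69 and an unadjusted p of 0.0564. Control replicate 2 stood above the other 5 libraries. Neu1 went the other way, with 1.77, 2.54 and 4.87 CPM in control and 12.6, 4.79 and 6.57 CPM in delipidated embryos. Its log2 fold change was 1.38 ± 0.72, with an unadjusted p of 0.0788 in edgeR's filtered test. In 2 of the 52 genes, beside 5.05% of all genes tested, each delipidated library was below each control library. They were Gm2a, the activator of ganglioside breakdown, with 79.6 ± 4.58 against 60.8 ± 8.12 CPM, and Sgpl1, the sphingosine phosphate lyase, with 5.62 ± 2.38 against 1.59 ± 1.39 CPM. The opposite was seen in 0 of the 52, beside 3.81% of all genes.

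By role, the numbers above and below 0 were 2 and 4 for subunits and regulators of serine palmitoyltransferase, 0 and 2 for ceramide synthesis and 1 and 3 for transport. They were 0 and 3 for sphingomyelin and ceramide phosphate, 2 and 3 for sphingomyelinases and 1 and 3 for ceramidases. For sphingosine phosphate they were 3 and 7, for the synthesis of glycosphingolipids 5 and 3, and for their breakdown 4 and 6. Over all genes tested the numbers were 8004 and 8016, and no role was tested as a set.

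Among the genes that move ceramide and its products, Plekha8, a transfer protein for glucosylceramide, had the highest level, 45.4 CPM per kb over the 6 libraries, with a log2 fold change of 0.17 ± 0.23. It had 381, 298 and 218 CPM in control and 285, 385 and 340 CPM in delipidated embryos, and the groups overlapped. B4galt6, which makes lactosylceramide from the product of Ugcg, had 17.4 CPM per kb and a log2 fold change of −0.24 ± 0.28. Smpd4, a neutral sphingomyelinase, had 15.5 CPM per kb and 0.32 ± 0.25 on the same log2 scale.

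Other genes that led their roles had lower levels. Fa2h, the fatty acid 2-hydroxylase, had 11.1 CPM per kb, and Sptssa, a small subunit of serine palmitoyltransferase, had 10.2 CPM per kb, all of it on parts shared with another gene identifier. Sgpp1, a sphingosine phosphate phosphatase, had 7.04 CPM per kb. Samd8, a relative of the sphingomyelin synthases, had 3.76 CPM per kb and Asah2, a neutral ceramidase, had 2.82 CPM per kb. Their log2 fold changes ran from −0.29 for Samd8 to 0.26 for Sptssa. Ugcg, with a mean of 38.6 CPM per kb over the 6 libraries, lay below Plekha8 and, named after its value had been seen, the ceramide transfer protein Cert1 (41.3 CPM per kb).

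Upstream sequence was searched on both strands for the E-box CACGTG, the core of the element that ChREBP binds with its partner, and for CCAAT, the GC box GGGCGG and the TATA box TATAAA. RefSeq (GRCm38.p6) listed 14 start sites for the 10 genes, each with a window of 250 bases before to 50 after the start, and all 10 genes matched. The letters CACGTG, which read the same on both strands, stood in 3 of the 14 windows, 1 each of Cers2, Cers6 and Degs1, and in 7.15% of all 32851 windows of this length. None of these 3 genes was called. CCAAT stood in 6 of the 14 windows and in 37.4% of all, GGGCGG in 9 and in 35.7%, and TATAAA in 1 and in 13.6%. The 250 bases before the start of Cers6 are shown because, of the 3, they alone overlap no exonic part of their gene. Capitals mark CACGTG and CCAAT.
Cers6, chr2:68861191-68861440, plus strand: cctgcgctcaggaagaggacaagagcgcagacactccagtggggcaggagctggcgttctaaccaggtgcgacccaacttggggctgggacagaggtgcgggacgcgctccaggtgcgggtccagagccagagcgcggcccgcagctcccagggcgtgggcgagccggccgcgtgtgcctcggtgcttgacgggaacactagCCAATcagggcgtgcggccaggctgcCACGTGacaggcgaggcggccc
A match of these letters is a description of the window and not a binding site.

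The labelled stage was checked against marker genes. All 7 genes of the list for activation at the 2-cell stage and all 9 maternal oocyte genes held counts. Their summed levels were 133 to 400 CPM and 927 to 1568 CPM across the libraries, with overlap between the groups, and their most abundant genes were Zfp352 (89.3 CPM) and Oosp1 (464 CPM). The 6 leukocyte genes summed to 0.346 to 9.88 CPM, led by Csf1r with 2.65 CPM, of whose counts 95.6% fell on a part that overlaps Hmgxb3 on the opposite strand. The 6 stromal genes summed to 5.48, 9.98 and 6.08 CPM in control and 1.93, 3.50 and 4.09 CPM in delipidated embryos, so that this list was lower in each delipidated library than in each control library. It was led by Pdgfra with 2.48 CPM, all on parts shared with another gene identifier. The 9 genes of cumulus and granulosa cells summed to 1.38 to 9.19 CPM in 5 libraries, with Ptx3 and Foxl2 at 0 in all. In control replicate 3 their sum was 64.5 CPM, of which Cyp11a1 made up 49.6 CPM, all on parts shared with another gene identifier. The 5 genes of oviduct epithelium summed to 82.8 to 227 CPM, nearly all from Epcam (145 CPM), a gene that is also expressed in embryos. Col1a1, named after its value had been seen, was the 1 stromal gene with an unadjusted p under 0.05 (0.00455 in edgeR's test), with 0.928, 1.57 and 3.19 CPM in control and 0 in all delipidated libraries. No gene of these lists was called, and their part in the levels of the enzyme genes was not tested.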

How the data were processed

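Embryo pools were processed without RNA extraction with a stranded total RNA kit that depletes ribosomal RNA, for paired-end sequencing. The submitters' processing notes name bcl2fastq 2.20, Trimmomatic 0.36, STAR 2.5.2b, featureCounts and the build mm10. The authors deposited raw counts of unique reads per exonic part, not normalized. Whether strand was used is not stated, and paired parts of opposite strands with one position held equal counts, so antisense reads cannot be separated. Parts were added up per gene, with names and exons from GENCODE M21 (GRCm38). Of 33309 parts under joined identifiers, 27968 overlapped the exons of 1 gene and were assigned to it; the others (2.49% to 2.57% of counts) were left out. No enzyme gene had joined parts. The comparison of the groups used edgeR 4.0.16 (R 4.3.3) with filterByExpr (minimum count 10, minimum total 15), TMM, quasi-likelihood test without covariates, Benjamini-Hochberg adjustment over 16020 genes. SEs are the log2 fold change over the square root of F, and 95% intervals use the test's degrees of freedom. Alternatives used DESeq2 1.42.0, the tool of the study, and limma 3.58.1. The scripts were tested on simulated data. Tables used Python 3.11.15. Named genes are the 10 enzymes, genes of the wider list with an unadjusted p under 0.05 and the highest per kb in each role, Mlxipl, the 3 most like Ugcg and the most abundant marker of each list; others are marked, and 1 gene under this rule is not reported here. Members and lists were chosen with earlier results of these data known.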

Additional observations from a re-analysis of the deposited data

How the results depend on the processing

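No enzyme gene was called, or reached an unadjusted p under 0.05, in any of the 14 refits, and the smallest unadjusted p was 0.0676 (Smpd1 without control replicate 2). Adjusted p-values ranged from 0.729 to 1.00. Of 136 refitted log2 fold changes of enzyme genes, 123 kept their direction and 13 did not. On the longest part alone, Sptlc1 was at −0.54, Cers6 at −0.25, Degs1 at −0.18 and Cers2 at 1.20. Sptlc2 was at −0.83, on a part with a count of 1 to 17 in each library. The median of the 7 genes tested was −0.18, and Cers4, Cers5 and Sgms1 gave no value. With 1 library left out, values ranged from −0.16 to 0.48 for Sptlc1, −0.37 to 0.028 for Sptlc2, −0.050 to 0.43 for Cers2, −2.28 to −0.24 for Cers4, 0.13 to 0.59 for Cers6, −0.10 to 0.29 for Degs1, −0.48 to 0.33 for Sgms1 and −0.85 to 1.73 for Smpd1, and their median from −0.19 to 0.016. The cause was not tested beyond the fewer libraries or parts used.

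With no filter, DESeq2 called 9 genes higher and 40 lower and edgeR 5 and 25, and each gave 2 genes of the wider list with an unadjusted p under 0.05, beside 4.33% and 3.92% of all genes. limma-voom gave 1 such gene, beside 3.86%, and leaving out 1 library 0 to 2, beside 2.2% to 5.61%. The median of the wider list was −0.22 to −0.046 with 1 library left out, −0.035 on the longest part and −0.22 with the replicate block. The order of control levels held for 4 of 10 genes with the median over parts of at least 100 bases and for 3 on coding parts alone (chosen after seeing the data). DESeq2's size factors rescale all genes of a library alike and could not reorder them within one. The replicate block called 0 genes, with a median of −0.084 for the enzyme genes. Libraries of equal number deviated from their group means with correlations of −0.133, 0.106 and 0.065, so the numbers do not pair them.

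The comparison of Cers4 rested on 41 counts in all, spread unevenly over the libraries, and Smpd1 varied widely between libraries. With 3 libraries a group, intervals reached beyond 1 log2 unit for 6 of 10 genes.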
